A study of Mus musculus with 4 samples.

Results

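Loops that join 2 distal anchors were described in H3K27ac HiChIP libraries of mouse embryonic stem cells. HiChIP ligates DNA ends that lie close together in fixed nuclei and enriches the ligated fragments with an antibody, here against acetylated lysine 27 of histone H3. A loop is a pair of anchors, the genomic intervals between which read pairs were counted. A loop was taken when it held at least 20 counts over the 4 libraries and when neither anchor overlapped a transcription start site of any gene of GENCODE release M21. This rule left 17825 of the 108034 loops with at least 20 counts (16.5%), from a table of 1513030 anchor pairs. The other loops joined a promoter anchor, one over a start site, to a distal anchor (48616) or joined 2 promoter anchors (41593).

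The libraries came from 2 inbred strains, C57BL/6J (B6; lines B6 4-1 and B6 5-1) and DBA/2J (D2; lines D2 2-9 and D2 5-5). Each line gave 1 library, so n = 2 per strain and each p-value measures the spread between these lines. All lines were grown alike, in medium with serum, LIF, the MEK inhibitor PD0325901 and the GSK3 inhibitor CHIR99021. Total counts ranged from 2767882 to 2944258 per library, and the library of D2 replicate 1 carries the mark 10cyc in its name where the others carry 8cyc. Promoter anchors were present for 9 of 10 embryonic stem cell marker genes, with 7220 to 9440 counts per library, and for 1 of 7 fibroblast markers (Thy1), with 10 to 22; the stem cell marker without one was Dppa4. They were also present for 6 of 6 primitive endoderm markers, with 335 to 400 counts in all, and for 4 of 6 trophoblast markers, with 732 to 863 and none for Elf5 and Hand1. Whether cells of these types were present was not tested.

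Enhancers are stretches of DNA that bind transcription factors and raise the transcription of genes that may lie far away. Active enhancers and active promoters both carry acetylated H3K27, so this assay enriches contacts among them. Contacts are known to be shaped by cohesin, a ring complex that extrudes DNA, and by CTCF, a DNA-binding protein at which extrusion stalls, most often at 2 motifs that point towards each other. Embryonic stem cells hold many clusters of enhancers bound by Oct4, Sox2, Esrrb and Klf4. A loop between distal anchors can join parts of such a cluster, or clusters that share a target gene.

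The bases around motif matches in anchors of loops that differed between the strains are printed here because they place the named loops on the genome and show the motif used for the count of orientations further on. The assembly is GRCm38 from RefSeq, and all lines read 5′ to 3′ on its plus strand. Capitals mark the match, which reads as the reverse complement where it lies on the minus strand. No window overlapped an annotated exon; the Gm5535 and Cflar windows lie in introns and the other windows between genes. The 3 loops named for Pde6h, Ust and Zfp951 lie between genes and carry the name of the nearest protein-coding gene.
Pde6h loop, anchor 1, CTCF core on the plus strand, chr6:136995652-136995783: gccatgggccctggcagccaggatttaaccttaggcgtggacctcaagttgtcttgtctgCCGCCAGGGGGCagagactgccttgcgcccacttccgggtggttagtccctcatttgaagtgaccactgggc
Pde6h loop, anchor 1, CTCF core on the minus strand, chr6:136999851-136999982: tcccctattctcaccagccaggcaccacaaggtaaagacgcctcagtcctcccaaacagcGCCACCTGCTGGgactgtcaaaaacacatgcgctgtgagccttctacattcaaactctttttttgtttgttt
Gm5535 loop, anchor 2, CTCF core on the minus strand, chr2:144197297-144197428: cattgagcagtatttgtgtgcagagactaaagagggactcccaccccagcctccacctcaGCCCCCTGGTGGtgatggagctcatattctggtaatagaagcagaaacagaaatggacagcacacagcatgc
Rps6ka1 to Hmgn2 loop, anchor 2, CTCF core on the plus strand, chr4:133931454-133931585: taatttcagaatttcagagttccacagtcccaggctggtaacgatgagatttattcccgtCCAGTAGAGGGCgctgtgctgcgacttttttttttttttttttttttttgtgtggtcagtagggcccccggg
Cflar to Trak2 loop, anchor 1, CTCF core on the plus strand, chr1:58770190-58770321: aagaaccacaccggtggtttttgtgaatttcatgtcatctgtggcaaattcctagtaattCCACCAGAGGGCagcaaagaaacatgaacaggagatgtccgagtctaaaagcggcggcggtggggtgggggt
Ust loop, anchor 1, CTCF core on the plus strand, chr10:8536776-8536907: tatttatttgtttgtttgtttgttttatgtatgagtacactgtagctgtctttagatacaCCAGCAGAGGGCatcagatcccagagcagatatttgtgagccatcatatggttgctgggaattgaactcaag
Zfp951 loop, anchor 1, TCAAGGTCA on the plus strand, chr5:104728544-104728672: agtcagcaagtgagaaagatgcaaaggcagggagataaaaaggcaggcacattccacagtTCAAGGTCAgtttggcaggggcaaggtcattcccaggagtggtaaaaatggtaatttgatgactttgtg

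A match is a description of the sequence only. Matches were searched on both strands in consecutive windows of 300 bases. The CTCF core, a pattern of the most conserved bases of the CTCF motif, was in 0.346% of windows in the 13858 distal anchors of these loops. It was in 0.375% of windows in promoter anchors and in 0.163% of all windows of the 19 autosomes. TCAAGGTCA, the response element of Esrrb, was in 1.05% of windows of the distal anchors, 1.04% in promoter anchors and 0.648% on the autosomes. GGGTGTGG, a letter string bound by Klf factors, was in 2.94%, 3.01% and 1.82% of windows in the same order. The octamer ATGCAAAT bound by Oct4 went the other way, at 1.90%, 1.48% and 2.57%. The Oct4-Sox2 composite motif, which can overlap the octamer, was matched in 12 windows of the distal anchors. Base composition moved with these shares: GC content was 45.0% in the distal anchors, 46.6% in promoter anchors and 41.9% on the autosomes. Its part in the shares was not tested.

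Distal to distal loops were short. Their median span between anchor midpoints was 35.2 kb, with quartiles of 14.2 and 96.4 kb, against 70.6 kb for promoter to distal loops and 129 kb for promoter to promoter loops. Spans of 5 to 20 kb made up 14.8% (5 to 10 kb) and 19.7% (10 to 20 kb) of them, and 34 loops (0.191%) spanned 1 to 2 Mb. In 3749 of them (21.0%) the gap between the anchors was under 5 kb, so the anchors were near neighbours. Weighted by counts, the median span was 28.1 and 29.7 kb in B6 replicates 1 and 2, and 29.6 and 28.8 kb in D2 replicates 1 and 2. In each of the 4 libraries the weighted span was shorter than that of both other classes. The mean difference was -18.99 kb ± 0.786 (SD, n = 4 libraries) from promoter to distal loops and -42.4 kb ± 1.29 (SD, n = 4) from promoter to promoter loops. An exact paired permutation test over the 4 libraries gave p = 0.125 for both, two-sided, which is the smallest p that 4 libraries allow (0.125 after adjustment over 6 comparisons of classes).

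They were also weaker. The median count over the 4 libraries was 32, against 35 for promoter to distal and 40 for promoter to promoter loops, all above the minimum of 20. At least 100 counts were reached by 1195 of them (6.70%), by 11.01% of promoter to distal loops and by 17.4% of promoter to promoter loops. The classes differ in anchor width, which adds to a count. With an anchor counted once for each loop that uses it, the median anchor width was 7542 bp here, 9532 bp and 12976 bp in the other classes. Among loops whose anchor widths summed to 8 to 16 kb, medians at spans of 5 to 10 kb were 37 for distal to distal, 41 for promoter to distal and 50 for promoter to promoter loops. At 20 to 50 kb they were 26, 27 and 30, and at 100 to 200 kb all 3 were 23. The lower median of the distal class was seen at short spans and not at 100 to 200 kb, where the medians lie just above the minimum.

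**Figure D1:**
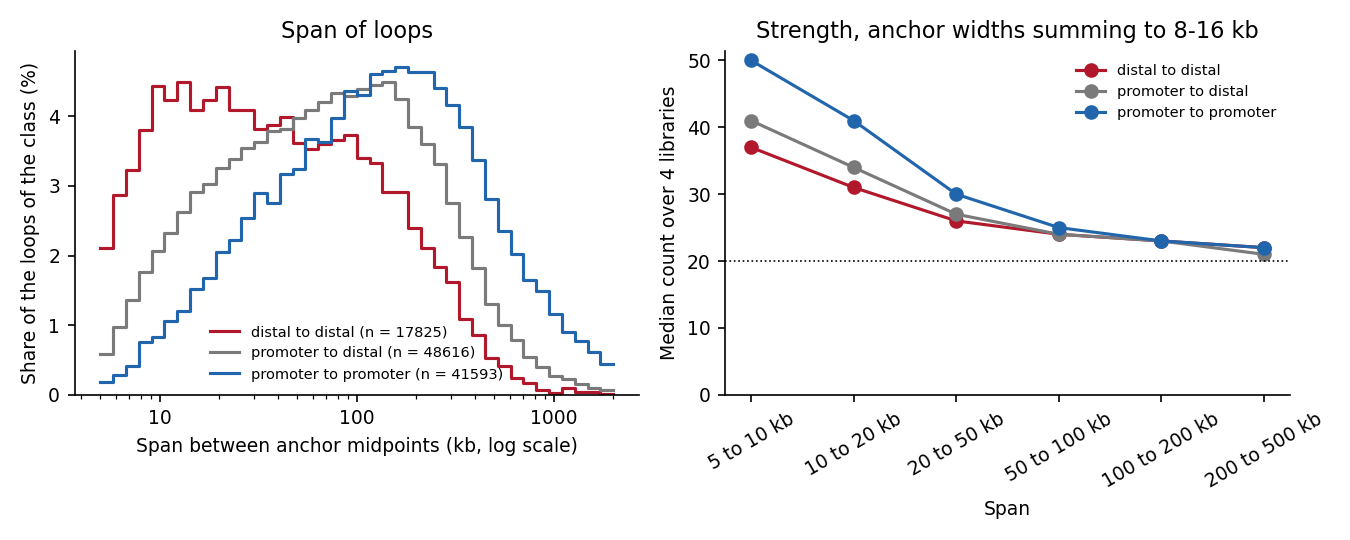
Left, share of the loops of each class (vertical, %) by span between anchor midpoints (horizontal, kb, log scale). Right, median count over the 4 libraries by span for loops whose anchor widths summed to 8 to 16 kb, with the minimum of 20 as a dotted line; the distal to distal class starts at 37 against 41 and 50, and all 3 classes are at 23 at 100 to 200 kb.

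The authors deposited a value from 0 to 1 for each pair and library, taken here as the q-value of their loop caller since no header names it. Such a value measures significance and not strength directly. It was under 0.01 in all 4 libraries for 2443 distal to distal loops (13.7%) and in none for 11485 (64.4%). At least 2 libraries passed for 25.4% of them, 42.5% of promoter to distal and 63.4% of promoter to promoter loops. These classes differ in span. In the same order, the shares were 8.61%, 15.2% and 26.9% at 5 to 10 kb and 78.6%, 81.9% and 88.7% at 200 to 500 kb. Within single libraries the share under 0.01 was 23.3% and 23.4% in B6 and 22.3% and 24.9% in D2. The share was larger beyond 200 kb: 8.61% at 5 to 10 kb, 22.4% at 10 to 20 kb, 21.9% at 20 to 50 kb, 19.3% at 50 to 100 kb, 21.3% at 100 to 200 kb, 78.6% at 200 to 500 kb and 100% beyond 500 kb had the q-value under 0.01 in at least 2 libraries. At the edge of the rule, 1096 of the loops had exactly 20 counts and 1287 pairs of distal anchors had 19 and were left out. Of all 498857 pairs of distal anchors in the table, 3.57% reached 20 counts, against 6.81% of promoter to distal and 13.9% of promoter to promoter pairs.

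Both anchors lay over the body of the same gene in 6332 of the 17825 loops (35.5%). Both anchors lay outside all gene bodies in 4738 (26.6%), a gene was joined to intergenic sequence in 4741 (26.6%), and 2 different genes were joined in 2014 (11.3%). Span followed placement: the median was 19.2 kb within a gene, 23.3 kb between intergenic anchors, 79.0 kb from a gene to intergenic sequence and 110 kb between genes. Median counts were 34.5, 33, 30 and 27 in the same order. The share of counts of these loops that fell within 1 gene was 40.5% and 39.5% in B6 and 38.2% and 39.7% in D2. That share was above the one for promoter to distal loops, 32.6% to 33.6%, in 4 of 4 libraries (exact paired permutation p = 0.125, two-sided). With bodies of protein-coding genes alone, an alternative chosen after the data were seen, 33.1% lay within 1 gene and 33.5% had both anchors intergenic.

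The 13858 distal anchors had a median width of 5068 bp, against 7128 bp for promoter anchors of the tested loops. They lay a median of 11.6 kb from the nearest start site (quartiles 5.02 and 25.1 kb, largest 369 kb), and 1631 (11.8%) lay within 2.5 kb of one. A gene body was overlapped by 60.5% of them, 30.6% in introns alone and 29.9% with an exon. Of the anchors, 6554 (47.3%) took part in 1 such loop alone, and 387 took part in at least 10. Anchors with at least 10 loops were wide, with a median of 19512 bp against 3905 bp for anchors with 1. The loops linked the anchors into 2507 connected groups, of which 1084 held 2 anchors and 375 held at least 10.

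The largest group held 73 anchors between 92767262 and 95129241 on chromosome 6, around Magi1, which encodes a scaffold protein of cell junctions. The anchor with the most loops was in it, at chr6:93933097-93996775 within Magi1. It had 43 distal to distal loops with spans of 38.7 to 1178 kb, and these held 1182 and 1053 counts in B6 and 860 and 1163 in D2. An intergenic anchor at chr3:9095828-9138807, nearest to Tpd52 among protein-coding genes, had 30 loops; all tested and untested pairs of this anchor held 713 and 782 counts in B6 and 1065 and 990 in D2. An anchor within Ctif, at chr18:75439829-75473901 and nearest to Smad7, an inhibitor of TGF-beta signalling, also had 30. An anchor at chr12:105047424-105106743 near Glrx5 had 29, and an anchor at chr5:118420932-118468040 near Med13l, a subunit of the Mediator kinase module, had 28. Of the 160 loops of these 5 anchors, 0 changed between the strains by edgeR's test (1.45% of all tested loops did), 18 (11.3%) had an unadjusted p under 0.05 (11.7% of all tested loops), and DESeq2 called 0 of the 43 that it gave an adjusted p. The anchor near Tpd52 had the largest log2 fold change of D2 over B6 of the 5, 0.50 (edgeR adjusted p = 0.0591 among 51820 anchors).

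The 5 strongest loops, in counts over the 4 libraries and over 1 Mb apart, did not pass the test between strains either. The strongest joined neighbouring stretches of Sipa1l3, a regulator of Rap signalling, at chr7:29388362-29426579 and chr7:29429214-29463028. It held 326 and 330 counts in the B6 libraries and 334 and 340 in the D2 libraries, a narrow range (log2 -0.03, edgeR adjusted p 0.972). A loop near Rybp, a Polycomb component, at chr6:100369579-100394561 and chr6:100407042-100440606 had 174 and 162 counts in B6 and 309 and 237 in D2. A loop near H2al2a at chr2:17929866-17955647 and chr2:17961627-17993769 had 142 and 183 in B6 and 354 and 199 in D2. The log2 fold changes of these intergenic loops were 0.64 ± 0.22 (SE) and 0.71 ± 0.22, with edgeR adjusted p of 0.122 and 0.0688. Scaled for depth, the strains did not overlap in the first, and in the second D2 replicate 2 lay just below B6 replicate 2 (115 in both after rounding, in CPM, counts scaled to the TMM-adjusted total of tested loops). The other two lay within Zmynd8, a chromatin reader (209, 171, 234 and 189 counts), and near Med13l (193, 183, 234 and 180), in the order B6 replicates 1 and 2, then D2 replicates 1 and 2.

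Most of the loops sat beside promoter contacts. Of their anchors, 10623 (76.7%) also had a tested loop to a promoter anchor. In 13900 loops (78.0%) both anchors were joined to the same promoter anchor, which closes a triangle of a promoter and 2 distal anchors. In 2874 (16.1%) only 1 anchor reached a promoter anchor, and in 938 (5.26%) neither did. Only loops of at least 20 counts were used for this, so these anchors may hold promoter pairs of fewer counts. Loops in triangles had a median span of 41.4 kb and a median of 33 counts. Loops with no tested promoter loop at either anchor had 12.6 kb and 27 counts. The anchors of the latter lay a median of 33.3 kb from a start site, against 11.02 kb in triangles. The remaining 113 joined different promoter anchors.

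Few loops carried the CTCF core in both anchors, 228 of 17825 (1.28%), and 14467 (81.2%) had none in either. In 214 loops each anchor had matches on 1 strand only. The 2 matches pointed towards each other in 77 of them (36.0%), away from each other in 36 (16.8%) and the same way in 101. Among 83 such loops of 50 to 200 kb, 35 were convergent and 14 divergent, and among 46 of 200 kb and over, 19 and 4. Under 50 kb the numbers were 23 and 18 of 85. In promoter to distal loops 29.0% were convergent and 20.6% divergent, and in promoter to promoter loops 26.5% and 23.2%. These are descriptions with no test, since loops share anchors.

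The first comparison of the strains was of whole libraries. Distal to distal loops held 12.4% and 12.6% of the counts of tested loops in B6 and 11.4% and 12.7% in D2. The difference of D2 minus B6 was -0.45 percentage points, less than the spread between the D2 libraries (SD 0.92), with an exact permutation p = 1, two-sided. D2 replicate 1 stood apart with the lowest share, and without it the difference turned to 0.20. The count-weighted median span differed by 0.33 kb (exact permutation p = 1). It was -0.468 kb without B6 replicate 1 and -0.085 kb without D2 replicate 1. Intergenic loops took 26.9% and 27.1% of the counts of the class in B6 and 29.2% and 27.8% in D2, so the strains did not overlap. That difference of 1.54 points had an exact permutation p = 0.333, the smallest that 2 against 2 libraries allow.

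The test of single loops was edgeR's quasi-likelihood test over all 108034 tested loops with Benjamini-Hochberg adjustment, and an adjusted p under 0.05 counted as changed. Of the 17825 distal to distal loops, 291 (1.63%) changed, against 1.45% of all tested loops, which is near the same. There were 100 higher in D2 (0.561%, background 0.492%) and 191 lower (1.07%, background 0.957%). Reads of D2 carry the alleles of that strain while the assembly is that of B6, and the part of alignment in the ratio of any single loop or anchor was not tested. In CPM the strains did not overlap, in either direction, for 7232 (40.6%), against 41.2% of all tested loops. The median log2 fold change of D2 over B6 was -0.06 in these loops and 0.02 over all tested loops. The sign of that median depended on the scaling: it was 0.01 with TMM factors from all pairs and 0.03 with totals within each chromosome. The median over all tested loops moved along, to 0.09 and 0.07, so these loops stayed below it under both scalings. Without D2 replicate 1 the order turned, with a median of 0.02 in these loops and -0.002 over all tested loops.

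The split between directions also moved with the scaling. Lower loops were 65.6% of the 291, and 55.1% (134 of 243) when each library was scaled to its total within each chromosome. The count of changed loops depended on which library was left out: without B6 replicate 1, B6 replicate 2 or D2 replicate 1 it was 50, 76 and 89, and without D2 replicate 2 it was 312. DESeq2 gave no adjusted p to 16377 of the 17825 loops, among them 211 of the 291, and called 13 loops, all 13 among the 291.

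The share of loops that rose varied more across placements than the share that fell. Of loops within a gene, 8 (0.126%) rose and 62 (0.979%) fell in D2, against 0.492% and 0.957% of all tested loops, so the share that fell was near the background. With both anchors intergenic, 66 (1.39%) rose and 58 (1.22%) fell. From a gene to intergenic sequence 23 (0.485%) rose and 56 (1.18%) fell, and between genes 3 (0.149%) and 15 (0.745%). Intergenic loops made up 66 of the 100 that rose and 58 of the 191 that fell. Within genes the lower loops outnumbered the higher ones under all 13 alternative fits, among them those without B6 replicate 1 (0 higher and 11 lower), B6 replicate 2 (1 and 18) and D2 replicate 1 (1 and 28). Between intergenic anchors the higher loops were the more numerous in 11 of these fits and not without B6 replicate 1 (12 and 16) or without D2 replicate 1 (16 and 21). Of 12513 promoter to distal loops within 1 gene, 48 (0.384%) were higher and 143 (1.14%) lower. Of 5935 promoter to promoter loops within 1 gene, 39 (0.657%) were higher and 79 (1.33%) lower. The difference between placements was not tested.

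**Figure D2:**
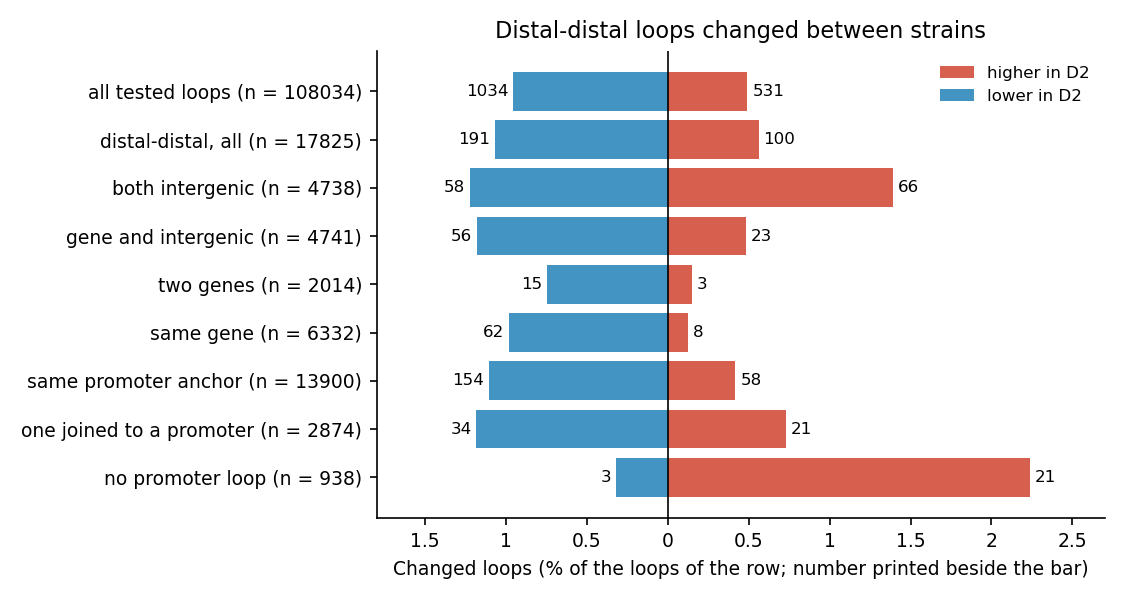
Share of the loops of each row (horizontal, %) that changed, higher in D2 to the right and lower to the left. Their number is printed beside each bar. Rows are all tested loops, all distal to distal loops, and these by placement and by tested loops to a promoter anchor. Loops within a gene show 8 higher and 62 lower, and loops with no tested promoter loop show 21 higher and 3 lower.

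Among loops with no tested promoter loop at either anchor more rose than fell. Of these 938 loops, 21 rose (2.24%, background 0.492%) and 3 fell (0.320%, background 0.957%). In triangles 58 rose (0.417%) and 154 fell (1.11%). The higher loops were the more numerous in the former under 12 of the 13 alternative fits. Leaving out B6 replicate 1 gave 4 and 2, B6 replicate 2 gave 7 and 0, and D2 replicate 1 gave 3 and 2; DESeq2 called 0 of the 12 to which it gave an adjusted p. The difference from loops in triangles was not tested. Loops with no tested promoter loop held 3.48% and 3.58% of the counts of the class in B6 and 4.09% and 3.85% in D2. Of the 21, 18 were intergenic. The following examples were chosen after their values were seen. Between Gnai1 and Magi2, a stretch of chromosome 5 with few genes, 3 anchors formed a ring of 3 such loops. They held 2 and 8 counts in B6 against 30 and 21 in D2, 2 and 2 against 32 and 13, and 8 and 6 against 45 and 18. Near the cadherin gene Cdh9 on chromosome 15 a loop had 0 and 1 counts in B6 and 17 and 7 in D2. A loop whose first anchor lay 575 kb from a start site of Ryr2, a calcium channel gene, had 12 and 17 against 54 and 41. One whose first anchor lay 529 kb from a start site of Slc8a1, a sodium and calcium exchanger gene, had 11 and 12 against 44 and 35. In each of these loops both D2 libraries lay above both B6 libraries.

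The 3 intergenic loops with the smallest adjusted p among those higher in D2 lay near Slc44a1, Ust and Abt1. Near Slc44a1, which encodes a choline transporter, the anchors chr4:53313519-53329366 and chr4:53334010-53356750 had 46 and 54 counts in B6 and 233 and 139 in D2. The log2 fold change was 1.83 ± 0.24 (SE), with an edgeR adjusted p of 3.06e-10. The first of these anchors reached the Slc44a1 promoter with 14 and 12 counts in B6 and 57 and 48 in D2, and the second reached the Abca1 promoter with 8 and 10 against 48 and 29. Both of these promoter loops changed too, with edgeR adjusted p of 4.59e-06 and 4.46e-05. Of all promoter loops of the anchors, 1 of 7 and 2 of 9 changed.

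Near Ust, a sulfotransferase gene, the anchors chr10:8536335-8546669 and chr10:8547820-8563772 had 7 and 12 counts in B6 and 73 and 44 in D2. D2 was higher by 2.54 ± 0.39 (SE) on the log2 scale, with an adjusted p of 1.06e-09 by edgeR. The loops of these anchors to the Ust promoter had 9 and 7 against 17 and 12 counts, and 8 and 8 against 27 and 16, and neither passed the test (adjusted p 0.542 and 0.0836). The second anchor's loops to other promoters did: that to Gm25410 had 5 and 2 counts in B6 against 44 and 24 (edgeR adjusted p 3.86e-08), and that to Sash1 had 2 and 6 against 22 and 14 (0.0117). Near Abt1, an activator of basal transcription, anchors at chr13:23398382-23403761 and chr13:23408921-23417897 had 7 and 13 counts in B6 and 56 and 56 in D2. Here the loops of both anchors to the Abt1 promoter rose as well, from 15 and 17 to 44 and 43 counts and from 68 and 64 to 147 and 132 (edgeR adjusted p 0.00443 and 0.00333). Their loops to the Btn2a2 promoter did not pass, with 10 and 14 against 14 and 13 counts and 25 and 53 against 26 and 30, and of all promoter loops of the anchors 2 of 10 and 1 of 11 changed.

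Among intergenic loops lower in D2, the anchors chr6:136989081-137004806 and chr6:137005882-137020936 near Pde6h had 74 and 70 counts in B6 and 7 and 5 in D2. Pde6h encodes an inhibitory subunit of the cone phosphodiesterase. With a log2 fold change of -3.62 ± 0.46 (SE) this loop had an edgeR adjusted p of 2.44e-18, and the CTCF core matches printed above lie in the first anchor. The other counts of the first anchor went from 288 and 298 in B6 to 65 and 87 in D2, and those of the second 212 and 221 against 47 and 80. Between Lamc1, a laminin subunit gene, and Shcbp1l, anchors at chr1:153343020-153382500 and chr1:153383791-153388480 had 54 and 52 counts in B6 and 6 and 9 in D2 (-2.87 ± 0.43 SE on the log2 scale).

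The loop near Zfp951, a zinc finger gene, had 25 and 24 counts in B6 and 0 and 2 in D2 at chr5:104720596-104740554 and chr5:104789278-104803442. Its anchors did not share the difference. All other counts of the first anchor went from 244 and 256 in B6 to 7 and 6 in D2 (log2 -5.22), and its loop to the promoter anchor over Spp1 and Pkd2 went from 31 and 22 to 3 and 0. The other counts of the second anchor were 220 and 201 in B6, and one D2 library lay above both and the other, with 184, below both (log2 0.02; edgeR adjusted p 0.708 for the whole anchor). The TCAAGGTCA window printed above is in the first anchor.

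Within genes, the 3 changed loops with the smallest adjusted p among those higher in D2 lay in Etl4, Malrd1 and Pgm2. In introns of Etl4, a gene known for its part in intervertebral disc development, anchors at chr2:20173512-20182534 and chr2:20202233-20213005 had 9 and 7 counts in B6 and 32 and 26 in D2. The other counts of the first anchor were 52 and 62 against 111 and 83, and those of the second 110 and 81 against 73 and 90, so the second overlapped between the strains. In introns of Malrd1 at chr2:16014205-16020383 and chr2:16027038-16036113, the B6 libraries held 1 and 2 counts and the D2 libraries 10 and 13. These anchors had no tested promoter loop.

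In Pgm2, which encodes phosphoglucomutase 2, anchors at chr5:64112966-64119211 and chr5:64123371-64131556 had 7 and 7 counts in B6 and 22 and 25 in D2. The first anchor lies 865 bp from a Pgm2 start site, within the 2.5 kb of an alternative that leaves such anchors out. The edgeR adjusted p was 0.0163 at a log2 fold change of 1.66 ± 0.47 (SE). The rest of both anchors stayed close between the strains, at 109 and 109 against 94 and 93 counts and 153 and 140 against 137 and 151. The loops of these anchors to the promoter of Pgm2 had 20, 29, 27 and 21 counts and 24, 17, 26 and 21, B6 first, and overlapped between the strains. The Malrd1 and Pgm2 loops lost the call without any 1 of the 4 libraries, and the Etl4 loop without each library but D2 replicate 2.

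Lower loops within genes lay in C230088H06Rik, Gm5535 and Mtmr7. The first, over the overlapping genes C230088H06Rik and Gm26624 in a stretch of chromosome 4 with several zinc finger genes, had 29 and 37 counts in B6 and 5 and 9 in D2. Its anchors are chr4:147396689-147404146 and chr4:147411459-147428413. In introns of Gm5535, anchors at chr2:144152998-144167776 and chr2:144193267-144201752 had 32 and 26 against 7 and 4 counts. Their loops to the promoter anchor over Snx5, a sorting nexin gene, fell from 52 and 47 to 18 and 17 and from 30 and 43 to 9 and 18. In Mtmr7, a myotubularin-related lipid phosphatase gene, anchors at chr8:40582535-40587841 and chr8:40601916-40614189 had 27 and 16 against 4 and 1. That loop missed the threshold without B6 replicate 1.

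Loops between a gene and other sequence included longer ones. An anchor 103 kb from the start of Slc1a3, a glutamate transporter gene, at chr15:8813841-8847245 and an anchor in Lmbrd2 at chr15:9191379-9232088 lie 381 kb apart and had 9 and 19 counts in B6 against 52 and 42 (1.67 ± 0.35 SE on the log2 scale). The first anchor's loop to the Slc1a3 promoter rose from 18 and 33 to 71 and 48. An anchor in Cflar, an inhibitor of caspase-8, at chr1:58754926-58772262 and an anchor near Trak2 at chr1:58893378-58899585 had 3 and 2 counts in B6 and 11 and 24 in D2. An anchor in Pkp4, a plakophilin gene, at chr2:59343329-59356579 and an anchor near Dapl1 at chr2:59419790-59426523 had 9 and 11 against 34 and 30. This Pkp4 anchor lies 1132 bp from a Pkp4 start site. These 3 loops lost the call when B6 replicate 1 was left out. The Cflar loop also lost it without B6 replicate 2 or D2 replicate 2, and the Pkp4 loop without B6 replicate 2 or D2 replicate 1.

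The lower loops of this kind lay at Mfap3, F2r and Rps6ka1. Fam114a2 at chr11:57494881-57503686 and Mfap3 at chr11:57529641-57568944 were joined by 50 and 38 counts in B6 against 10 and 8 (log2 -2.34 ± 0.40 SE, edgeR adjusted p 2.51e-07). An anchor nearest to F2rl1 at chr13:95552612-95574036 and an anchor in F2r at chr13:95594357-95613087 had 86 and 60 against 29 and 31; F2r and F2rl1 encode protease-activated receptors. The first anchor's loop to the F2rl1 promoter fell from 121 and 115 to 47 and 53, while the second anchor's loop to the F2r promoter had 64 and 60 against 57 and 45 (edgeR adjusted p 0.654). Rps6ka1, a kinase of the ERK pathway, at chr4:133826585-133850326 and an anchor near Hmgn2 at chr4:133927208-133933074 had 22 and 23 against 3 and 7. The F2r loop was not called without B6 replicate 1, and the Rps6ka1 loop was not called without B6 replicate 2 or D2 replicate 1. In all 18 named loops the fold change kept its sign in each alternative fit, and 9 passed the threshold in every alternative that gave them an adjusted p. All 18 were chosen as changed loops whose strains do not overlap, so the kept sign follows largely from that choice. With no count minimum in the fit the Malrd1, Pgm2, Cflar, Pkp4 and Rps6ka1 loops missed the threshold (edgeR adjusted p 0.376, 0.313, 0.0525, 0.0609 and 0.0836). With DESeq2 the Slc1a3 and F2r loops missed it (adjusted p 0.139 and 0.0897).

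**Figure D3:**
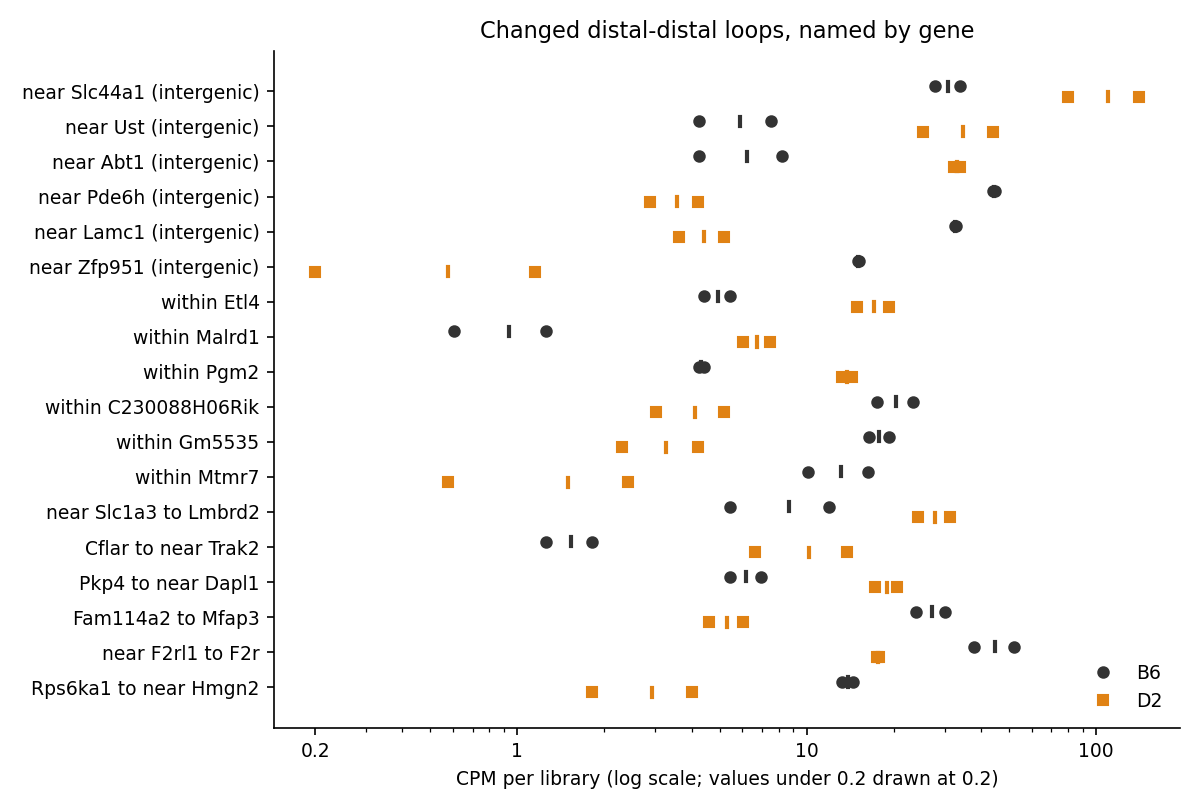
CPM over the tested loops in each library (horizontal, log scale) for the 18 named changed loops; black circles are B6, orange squares D2, and short bars the mean of 2 libraries. The 2 libraries of a strain lie on the same side of both libraries of the other strain in each row, which the choice of these loops required.

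The anchors of the changed loops were tested on all their counts, which include those of the loop itself. Of all 51820 anchors tested, 9.75% changed. Of the 100 loops higher in D2, 93 had at least 1 anchor that was higher too, and of the 191 lower loops, 182 had one that was lower. The share was 16.8% among the 17534 loops that did not change, taking an anchor that changed in the loop's own direction. Counts of the anchors outside the loop had the same sign as the loop in both anchors for 92 of 100 and 181 of 191. The same share was not computed for the loops that did not change, and loops that share an anchor are counted separately. The counts outside the loop were not tested on their own. The shift there was smaller, with a median log2 of 0.72 for higher and -0.88 for lower loops, against medians of 1.65 and -2.03 for the loops themselves. The loops were chosen for their change, so the latter are a description of the selection. Of 543 promoter loops of the anchors of higher loops, 59 (10.9%) rose and 0 fell by edgeR's test, with 189 and 2 at an unadjusted p under 0.05. Of 1076 for lower loops, 151 (14.0%) fell and 0 rose, with 463 and 5. Of all promoter to distal loops, 0.467% rose and 0.975% fell by edgeR's test, and 11.8% had an unadjusted p under 0.05. Among the promoter loops of these anchors, DESeq2 called 8 of the 122 and 14 of the 203 that it gave an adjusted p. A promoter loop shares its distal anchor with the loop that chose it.

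**Figure D4:**
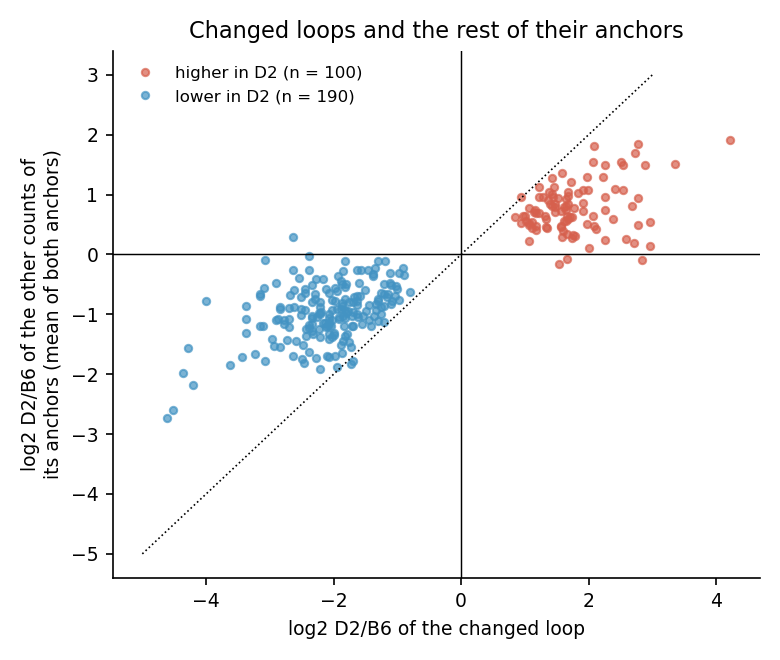
Log2 ratio of D2 over B6 of each changed distal to distal loop (horizontal) against that of all other counts of its anchors, mean of both (vertical), with the line of equality dotted; red points are the 100 loops higher in D2 and blue points lower ones, leaving out the loop with no count in a strain. Most points lie between the line of equality and 0.

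Several windows of 1 Mb held more than 1 changed loop. The windows named here are among those with the most changed loops, so their counts describe that choice. Of all tested loops, 0.492% rose and 0.957% fell. The 191 lower loops lay in 98 windows of 1 Mb and the 100 higher ones in 69. From 137 to 138 Mb of chromosome 6, around Pde6h, Rerg, Eps8 and Strap, 13 of 23 loops fell. Together those 23 held 445 and 463 counts in B6 and 113 and 166 in D2. From 57 to 58 Mb of chromosome 11, around Mfap3 and Galnt10, 7 of 21 fell, and from 104 to 105 Mb of chromosome 5, around Spp1 and Zfp951, 7 of 13. From 4 to 5 Mb of chromosome 4, near Penk, which encodes the precursor of enkephalins, 4 of 15 rose, from 97 and 105 counts to 328 and 240 over the 15. Chromosome 4 as a whole had a median log2 of -0.20 over 1225 loops, and its median over all tested loops was -0.16. Of the 1225, 12 were higher (background 0.492%) and 32 lower (2.61%, background 0.957%). On chromosome 15, 7 of 774 loops (0.904%) rose and 0 fell by edgeR's test, against 1.45% of all tested loops that changed. There 47 and 28 had an unadjusted p under 0.05, together 9.69% against a background of 11.7%, and DESeq2 called 0.

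Motif shares were also described for the anchors of the changed loops. In the 161 anchors of higher loops 0.195% of the 300-base windows held the CTCF core and 2.13% held GGGTGTGG. In the 286 anchors of lower loops these shares were 0.363% and 3.44%. The octamer ATGCAAAT was in 2.34% and 1.89% of windows. GC content was 42.1% and 45.3%, and its part in these shares was not tested. Over all 13858 distal anchors the CTCF core was in 0.346% of windows, GGGTGTGG in 2.94% and ATGCAAAT in 1.90%, with a GC content of 45.0%. Each of these values is nearer to that of the lower loops. In the anchors of higher loops the CTCF core was in only 13 of 6663 windows, and no difference was tested.

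Distal loops around regulators of embryonic stem cells were counted by gene list. A loop was assigned to a gene when both anchors lay in its body or both were joined to an anchor over its start site. Over the 6 lists 2 of 233 loops (0.858%) changed, against 1.45% of all tested loops, and numbers this small do not set these genes apart. Of 17 naive pluripotency genes, 13 had 146 such loops, of which 0 changed by edgeR (background 1.45%), 7 (4.79%) had an unadjusted p under 0.05 (background 11.7%) and DESeq2 called 0. Their median log2 was -0.11, against 0.02 over all tested loops. Sall4, a zinc finger factor of the pluripotency network, had 54, with 849 and 800 counts in B6 and 783 and 870 in D2, which overlap. Its strongest loop, at chr2:168093552-168108417 and chr2:168110871-168138732, had 107 and 89 against 61 and 98. Fgf4, the growth factor that primes differentiation, had 18 loops with 274 and 279 against 243 and 264 counts. Nanog, a core factor of the naive state, had 16 with 213 and 203 against 234 and 268, and Dppa3 shares its strongest loop with Nanog. Esrrb, an orphan nuclear receptor, had 6 within its body, with 64 and 56 against 76 and 55.

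The other lists were small. Genes of the formative or primed state had 33 loops for 6 of 9 genes, of which 1 fell. That loop joins chr2:153573815-153589046 and chr2:153591448-153624738 and reaches the promoter of Dnmt3b, a DNA methyltransferase. It had 105 and 95 counts in B6 against 53 and 44 (log2 -1.11 ± 0.25 SE, edgeR adjusted p 0.00196). Lineage regulators had 6 loops, all at Sox1, a gene of neural progenitors, and the strongest rose. It joins chr8:12476185-12489743 and chr8:12533849-12550323, with 24 and 30 counts in B6 against 81 and 47 (log2 1.18 ± 0.29 SE, edgeR adjusted p 0.0047). By edgeR 0 changed of 31 loops of LIF and STAT3 genes, 11 of ERK feedback genes and 6 of Wnt genes, with 2, 1 and 0 at an unadjusted p under 0.05 and 0 called by DESeq2; at a background of 1.45%, lists of this size say nothing about these genes. Socs3, the feedback inhibitor of STAT3 signalling, had 13 of the first, with 153 and 151 against 114 and 145 counts.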

How the data were processed

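The deposited table holds raw counts of read pairs per anchor pair and library, and 4 files of single libraries repeat the counts beside a value from 0 to 1 taken as the authors' q-value of the pair. The deposited table also gives the distance between anchor midpoints in bp. The submitters' processing notes name HiC-Pro 2.11.4, DESeq2 and mm10, the assembly of the C57BL/6J genome; how D2 reads were aligned is not given in the sources used here. All 56562 anchors started and ended at GATC, the DpnII site, in GRCm38, which is the same assembly. Members and gene lists were chosen with earlier results of these data known.

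Loops with at least 20 counts were compared by edgeR 4.0.16 (limma 3.58.1, R 4.3.3) with TMM factors and strain as the only term; the test was first checked on simulated counts. The count of an anchor is the sum over its pairs, and anchors were tested alike. The SE printed beside a log2 fold change belongs to the fitted coefficient. CPM are scaled to the counts of tested loops times the TMM factor. Named changed loops are, for each of 3 placements and each direction, the 3 with the smallest adjusted p whose strains do not overlap, over 1 Mb apart. The 5 loops with the most counts, the 5 anchors with the most loops and the strongest loop of listed genes were also named. Gene bodies and start sites are those of GENCODE M21. Python 3.11.15 with scipy 1.17.1 ran the exact permutation tests. DESeq2 1.42.0, other scalings, count minimums, definitions of a promoter anchor, the replicate block and fits without single libraries were alternatives. The table covers the 19 autosomes.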

Additional observations from a re-analysis of the deposited data

How the results depend on the processing

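Of the 17825 loops, 291 changed in the main test, and 243 to 290 changed with RLE size factors, library totals, TMM factors over all pairs, and totals within chromosomes or span bins. The count was 13 with DESeq2 (38.5% lower), 81 with no count minimum in the fit and 179 of 4434 loops with at least 50 counts. It was 454 of 26004 (1.75%) with start sites of protein-coding genes only. For loops with a q-value under 0.01 in at least 2 libraries it was 193 of 4528 (4.26%), against 1.63% of the 17825. These last 3 sets hold other numbers of loops. The set of at least 50 counts was fitted anew, and the other 2 were read from the main fit with its adjusted p. Lower loops were 44.4% of the calls with no count minimum. Leaving out 1 library gave 50 to 312 calls. With the replicate block, 248 loops changed, all among the 291. Over 108034 loops the difference of replicate 1 minus replicate 2 in B6 had a correlation of -0.002 with that in D2. With so few counts per loop, this value cannot decide whether the replicate number pairs the libraries. Changed anchors numbered 5054, 1307 with DESeq2, 5903 with the replicate block and 2589 to 7660 without 1 library. The share difference of -0.45 points ranged from -1.10 to 0.20 without 1 library, and was -1.42 with no count minimum and -0.055 for loops with the q-value in at least 2 libraries. The span difference of 0.33 kb ranged from -0.468 to 1.13 kb without 1 library (-0.085 kb without D2 replicate 1) and was -15.0 kb with no count minimum; the cause was not tested. The median span of the loops was 23.4 kb at 50 counts and 69.3 kb for loops with the q-value in at least 2 libraries, alternatives chosen after the data were seen. The median loop held 32 counts over 4 libraries, and the smallest difference detectable at that depth was not tested.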
